A study of Homo sapiens with 24 samples.

Results

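DNA replication and nucleotide synthesis genes were examined in HCT116 cells depleted of UHRF1, DNMT1 or both. They are 44 genes of the 58735 Ensembl genes counted, taken by symbol from a fixed list of roles. The list holds 5 licensing genes, the 6 subunits of the MCM2-7 helicase, 6 genes of origin firing and the CMG helicase, and 9 DNA polymerase and primase genes. It also holds 4 clamp loader genes, 4 genes of RPA and the lagging strand, 4 of chromatin assembly and the replication checkpoint, and 6 of deoxynucleotide synthesis. The rule names symbols and roles and holds no measured value, but the list was drawn up with earlier results of these data known.

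HCT116 is a human colorectal carcinoma line. Lines made from it carry the AID degron, which lets auxin trigger breakdown of the tagged protein, on UHRF1 (at the C terminus, with mClover), on DNMT1 (at the N terminus, with mRuby2) or on both proteins, the compound line UHRF1-AID/DNMT1-AID. WT is the untagged line. All 4 lines express the plant receptor OsTIR1 from a doxycycline-inducible cassette. PolyA RNA of each line was sequenced at day 0, without auxin, and at day 4, in 8 groups of 3 libraries. Day 4 cells, WT cells included, had 1 day of 2 µg/ml doxycycline with 20 µM auxinole and then 2 µg/ml doxycycline with 500 µM auxin, while the labels do not say whether day 0 cells had doxycycline. The design asks how the genes differ between depleted lines and WT, and how much of that is also seen in WT cells kept in auxin. Nothing in the labels says which replicate is which clone or culture, so p-values measure the spread between these libraries.

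Before a cell can copy its DNA, the origin recognition complex, CDC6 and CDT1 load MCM2-7 rings on origins. CDC45 and the GINS complex then turn the rings into active helicases, primase and polymerases alpha, delta and epsilon make the new strands, and replication factor C (RFC) loads the sliding clamp. Many of these genes are transcribed in waves at the G1/S boundary under E2F transcription factors, so their RNA is a common readout of proliferation. Ribonucleotide reductase, thymidylate synthase and thymidine kinase supply the deoxynucleotides.

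Promoters of 38 of the 44 genes were matched by symbol in RefSeq (build GRCh38.p14), each as the 250 bases before and 50 after the gene start. Letters of the E2F type (TTTGGCGC, TTTCCCGC, TTTGCCGC, TTTCGCGC, TTTGGCGG or TTTCCCGG, on either strand) stood in 20 of the 38, or 52.6%, against 5.34% of 27305 promoters of all genes. CCAAT stood in 57.9% of the 38 against 35.7% of all promoters. The letters TTTGAA or TTCGAA, known from promoters of late cell cycle genes, stood in 7.89% against 16.6%. Among 33 promoters of mitosis genes the same 3 searches gave 15.2%, 75.8% and 78.8%. Among 27 promoters of other replication genes they gave 29.6%, 55.6% and 7.41%. For 26 promoters of other nucleotide metabolism genes the shares were 15.4%, 38.5% and 7.69%. The stretches below show the E2F-type letters in capitals in licensing, helicase and polymerase genes whose RNA is described further on. Each is 30 bases on the strand of the gene. In both MCM6 stretches the capitals overlap a match to TTTCGCGC on the other strand, and CDT1 holds a match on each strand side by side.
MCM6 (chr2:135876577-135876606): agggctttgcaTTTGGCGCgaaatcccttt
MCM6 (chr2:135876515-135876544): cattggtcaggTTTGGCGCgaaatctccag
MCM3 (chr6:52284898-52284927): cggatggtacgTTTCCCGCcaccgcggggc
MCM7 (chr7:100101566-100101595): cagctcggaccGCGGGAAAcccggcgcctg
CDT1 (chr16:88803743-88803772): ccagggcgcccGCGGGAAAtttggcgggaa
CDC6 (chr17:40287840-40287869): cgaggccgggcTTTGGCGGgaggtgggaac
CDC45 (chr22:19479884-19479913): aggagccgtgaTTTGGCGGgagtcttgacc
POLA1 (chrX:24693770-24693799): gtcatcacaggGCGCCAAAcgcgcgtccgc

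Each library held between 15824804 and 25073821 counts on genes, and 40 of the 44 genes had at least 100 counts in every library. The lowest count of any of them was 25, for POLA2. All 44 passed the filter on low counts in every comparison. The alignment paths in the file headers form 2 sets, one of 15 libraries (all of day 0, and UHRF1-AID cells at day 4) and one of the 9 remaining day 4 libraries. Those 9 libraries alone held ERCC spike-in counts, between 0.891% and 1.65% of all counts. Comparisons of day 4 with day 0 in WT, DNMT1-AID and compound cells, of UHRF1-AID cells with the other lines at day 4, and of the UHRF1-AID day effect with that of WT therefore set one against the other, and set and biology cannot be told apart there. The day effects of DNMT1-AID, compound and WT cells all cross the sets in the same way. At day 0, library 3 of WT and libraries 1 and 2 of DNMT1-AID had fewer counts on long genes. The rank correlation of their log2 deviation with exon length across 12040 genes was -0.21, -0.23 and -0.17, against 0.05 to 0.32 in the other day 0 libraries. At day 4 it was -0.25, -0.13 and -0.03 in WT, between -0.17 and -0.07 with DNMT1 depleted and between -0.18 and -0.15 in compound cells, but 0.22, -0.13 and 0.18 with UHRF1 depleted. The length trend thus moved with the day comparisons and with UHRF1-AID against WT. At day 0, library 3 of WT and library 3 of DNMT1-AID also differed from their own groups in opposite directions. Across genes, deviations of same-numbered libraries of these lines from their group means correlated at -0.55, -0.46 and -0.81. Chi-square per degree of freedom, which grows as a pair of libraries differs more, reached 53.7 and 59.2 in these groups. It was at most 18.6 in the other day 0 groups, and the cause was not tested. With an offset for gene length the lower genes described below numbered 29 in place of 25 for WT over the 4 days, 14 in place of 11 for UHRF1-AID against WT at day 4, and 6 and 27 as before for DNMT1-AID and compound cells. In that order all genes tested gave 2474 lower in place of 2427, 1033 in place of 917, 457 in place of 398 and 2474 in place of 2533. Of 7 epithelial markers 6 were detected in every library, while VIL1 stayed at or below 0.417 CPM, the counts of a gene scaled to a common library size by the TMM method of edgeR. Of 8 markers of blood, fibroblast and endothelial cells, COL1A1 reached 19.3 CPM in compound cells at day 4 and the other 7 stayed at or below 3.54.

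The targeted genes are tagged at the protein, so their transcripts do not check the depletion. UHRF1 RNA measured 89.2, 81.4 and 50.5 CPM in WT at day 0 and 17.5, 24.3 and 33.7 at day 4. DNMT1 RNA measured 171, 180 and 76.9 CPM in WT at day 0 and 23.7, 24.3 and 44.9 at day 4. Both fell in WT cells without a tag, by 1.54 and 2.20 on the log2 scale (adjusted p = 0.0106 and 0.0139, edgeR). At day 4 DNMT1 RNA measured 16.5, 13.1 and 16.1 CPM in DNMT1-AID cells, below each WT library, yet without passing the test (log2 fold change -1.02, adjusted p = 0.0699).

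At day 0 the genes spanned a wide range of levels in WT cells. On the scale of CPM per kb of summed exon length, TK1, the thymidine kinase of S phase, stood highest at 301 ± 56.2 (SD, n = 3), followed by MCM7 at 139 ± 23.3 and MCM3 at 78.2 ± 4.11. POLA2, the second subunit of polymerase alpha, was lowest at 1.06 ± 0.215, below the checkpoint mediator CLSPN at 1.69 ± 0.721. Another gene on the same strand shares 35.1% of the POLA2 exon length, so reads of that part are uncertain and its level may be understated. RRM1 at 51.3 ± 5.15, RRM2 at 50.6 ± 10.9 and RPA2 at 50.2 ± 11.9 lay within their spread of one another. Summed exons include every annotated transcript, so these levels are lower bounds where a short transcript carries the reads. On this scale the helicase subunits MCM2, MCM4, MCM5 and MCM6 lay between 34.3 and 46.3 CPM per kb, all below MCM3 and MCM7. Before division by exon length, MCM4 and MCM5 at 263 and 262 CPM lay near MCM3 at 286. Their summed exons are 6973, 7338 and 3650 bases long, so the scale does not show unequal levels of these 3.

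**Figure D1:**
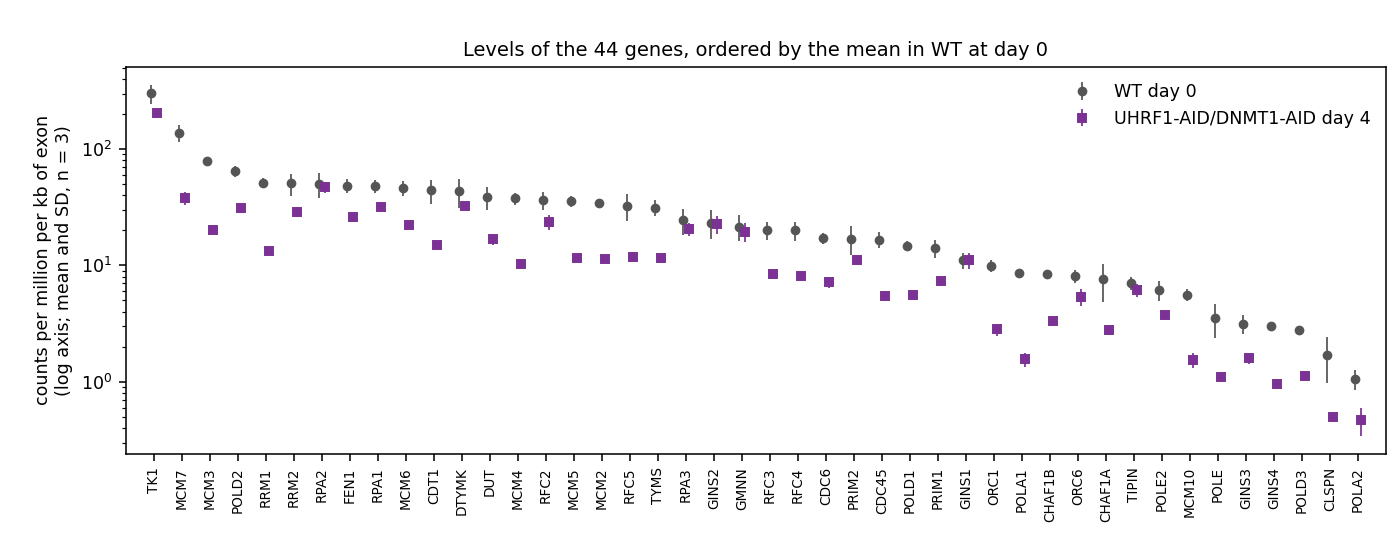
Mean level of the 44 genes in CPM per kb of exon on a log axis, with SD over 3 libraries, in WT cells at day 0 (circles) and UHRF1-AID/DNMT1-AID cells at day 4 (squares), ordered by WT day 0. TK1 is highest at 301 and POLA2 lowest at 1.06 in WT, and the squares of MCM7, RRM1 and POLA1 lie well below their circles while those of RPA2 and GINS2 lie on them.

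Without auxin each degron line was compared with WT. Against WT at day 0 none of the 44 passed in UHRF1-AID cells, where 0.0% of all genes tested passed as lower, nor in DNMT1-AID cells (0.00723%) nor in compound cells (2.1%). The 3 medians of the 44 log2 fold changes were 0.02, 0.04 and -0.08 in that order. At an unadjusted p under 0.05, 1, 1 and 4 of the 44 differed, beside 512 of 13894, 711 of 13833 and 2836 of 14023 of all genes tested. DESeq2 called 0, 0 and 2 of the 44, and in compound cells 544 of all genes as lower and 421 as higher. The last comparison turned on library 3 of WT. Without it 3 genes were lower in compound cells, CDC45, POLA1 and POLD2, and 8 were higher, FEN1, GMNN, ORC6, POLE2, RFC2, RPA2, RPA3 and TIPIN. In that fit 2042 of all 14488 genes tested were lower and 1956 higher, so calls rose over all genes as well. DNMT1-AID cells against WT also depended on library 3 of WT at an unadjusted p under 0.05. Without it 2705 of 14148 genes tested differed there, against 711 of 13833, though none of the 44 passed.

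In WT cells 4 days of auxin went with lower RNA of 25 of the 44 genes, and none was higher. All genes tested gave 17.8% lower, and their median log2 fold change was -0.03 against -0.60 for the 44. In 27 of the 44 the 3 day 4 libraries all lay below the 3 day 0 libraries, against 24.6% of all genes. POLA1, the catalytic subunit of polymerase alpha, measured 55.2, 54.2 and 55.5 CPM at day 0 and 13.6, 17.7 and 17.1 at day 4. The groups lay far apart, and the log2 fold change was -1.76 ± 0.14 (SE, adjusted p = 8.3e-05). MCM3 measured 286, 270 and 300 CPM at day 0 and 101, 123 and 110 at day 4, a log2 fold change of -1.36 ± 0.12 (adjusted p = 0.000121). MCM4 measured 283, 228 and 278 CPM and then 121, 131 and 118, a log2 fold change of -1.09 ± 0.12 (adjusted p = 0.000331). Every day 4 value of both helicase subunits was under every day 0 value.

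By role, 5 of 6 helicase subunits fell in WT, with MCM6 at -0.33 short of the test. Of the polymerase and primase genes 6 of 9 fell, of the clamp loader 2 of 4, of deoxynucleotide synthesis 4 of 6, and of licensing 3 of 5. Only RPA1 of the 4 genes of RPA and the lagging strand fell, by 0.35. The fall was over 2-fold in 7 of the 44: MCM3, MCM4, MCM10, GINS4, POLA1, POLD1 and POLE. Of all 13601 genes tested 888 passed and fell by over 2-fold. CHAF1A, a subunit of chromatin assembly factor 1, had a log2 fold change of -1.20 that did not pass. It measured 40.5, 38.6 and 19.1 CPM at day 0 and 8.67, 13.6 and 20.2 at day 4, so the groups overlapped, and it passed as lower with DESeq2 and with all 24 libraries in 1 fit. GINS1 had a log2 fold change of 0.24 in WT, and it passed as higher (0.35) when library 3 of WT day 0 was left out. Of the 25 genes, 19 passed in each fit that left out 1 library. Bulk RNA does not tell fewer cells in S phase from less RNA per cell, here or below.

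The 3 degron lines showed the same direction over the 4 days. UHRF1-AID cells had 35 of 44 genes lower (22.9% of all genes tested). DNMT1-AID cells had 38 lower (20.8%) and compound cells 41 (32.5%), and none was higher in any line. The median log2 fold changes were -1.10, -0.81 and -1.11. Genes lower by over 2-fold numbered 23, 17 and 25 in the same order, beside 1413 of 14391, 925 of 13850 and 1686 of 14698 of all genes tested. The UHRF1-AID day comparison lies within 1 alignment set. All 4 lines, WT included, shared a fall of 24 genes, among them MCM2, MCM3, MCM4, MCM5, MCM7, CDC45, POLA1, POLD1, TYMS, TK1 and RRM1. How many of all genes fell in all 4 lines was not counted, and it cannot exceed the 2427 of 13601 lower in WT. GMNN, which encodes the CDT1 inhibitor geminin, and GINS2 passed in no day comparison.

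POLD1, the catalytic subunit of polymerase delta, is given as a gene chosen after its values were seen because its day 4 levels were alike in the 4 lines. It measured 27.0, 31.6 and 34.0 CPM in WT at day 4, 26.5, 21.9 and 29.5 with UHRF1 depleted, 28.1, 29.5 and 24.4 with DNMT1 depleted and 25.4, 28.7 and 27.8 in compound cells. At day 0 it lay between 61.4 and 80.1 CPM in all 4 lines. Its log2 fold changes over the 4 days were -1.23 (WT), -1.46 (UHRF1-AID), -1.23 (DNMT1-AID) and -1.27 (compound), and no line differed from WT at day 4 by the test.

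**Figure D2:**
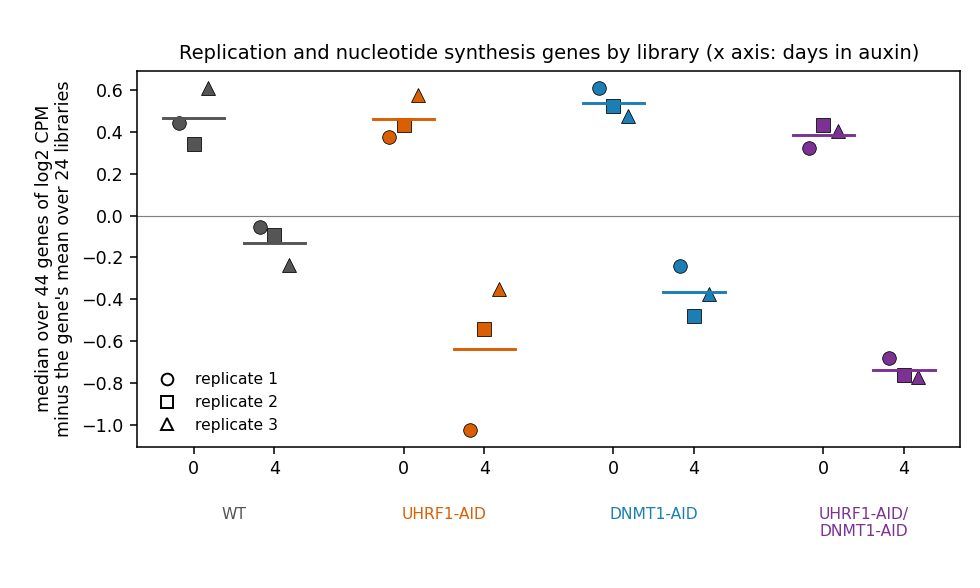
One point per library: the median over the 44 genes of log2 CPM minus the mean of the gene over 24 libraries, by line and days in auxin, with bars at the group means. All day 0 libraries lie between 0.32 and 0.61, WT day 4 between -0.24 and -0.05, DNMT1-AID day 4 between -0.48 and -0.24, compound day 4 between -0.77 and -0.68, and UHRF1-AID day 4 spreads from -1.02 to -0.35.

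The plot of medians by library shows where the lines parted at day 4. Each of the 3 compound libraries lay below each WT and each DNMT1-AID library. Library 1 of UHRF1-AID cells, at -1.02, stood apart from the other two at -0.54 and -0.35, and it was also the lowest for 38 mitosis genes, at -1.09 against -0.45 and -0.33.

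Against WT at day 4, UHRF1-AID cells had 11 of the 44 genes lower and none higher, where 6.57% of all genes tested were lower. In 23 of the 44 all UHRF1-AID libraries lay below all WT libraries, against 16.4% of all genes. The median log2 fold change of the 44 was -0.43, against 0.03 for all genes, and it became -0.26 without UHRF1-AID library 1. TYMS alone of the 44 was lower by over 2-fold, beside 170 of the 13958 genes tested. Thymidylate synthase, its product, makes dTMP, and the gene (ENSG00000176890, hg38 chr18:657604-673578) measured 54.2, 55.3 and 46.7 CPM in WT and 15.8, 24.3 and 27.8 in UHRF1-AID cells. The highest UHRF1-AID value was well under the lowest WT value, with a log2 fold change of -1.21 ± 0.20 (adjusted p = 0.00347). ENOSF1, on the opposite strand, shares 39.2% of the exon length of TYMS, and the counting is not stated to use strand, so reads of the shared part are uncertain.

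RFC5, a subunit of the clamp loader, measured 83.6, 81.9 and 70.9 CPM in WT and 37.6, 53.8 and 51.0 in UHRF1-AID cells at day 4, a log2 fold change of -0.74 ± 0.15 (adjusted p = 0.00943). TYMS and RFC5 passed in each fit without 1 library. GINS1, a subunit of the GINS complex, measured 59.1, 52.7 and 47.1 CPM in WT and 24.8, 31.7 and 38.1 in UHRF1-AID cells (log2 fold change -0.76 ± 0.17, adjusted p = 0.014). The groups of GINS1 did not overlap, but it passed in 4 of the 6 fits without 1 library.

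Licensing gave 1 gene and the polymerases and primase 2. CDT1, the licensing factor, measured 60.7, 69.3 and 94.3 CPM in WT and 31.2, 30.4 and 52.7 in UHRF1-AID cells (log2 fold change -0.99 ± 0.25, adjusted p = 0.034). POLD2, a subunit of polymerase delta, measured 179, 191 and 153 CPM in WT and 119, 126 and 127 in UHRF1-AID cells (log2 fold change -0.50 ± 0.11, adjusted p = 0.015). Both groups were apart, and CDT1 varied more than POLD2 among replicates.

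RPA3, the small subunit of the single-strand binding complex, measured 71.5, 62.3 and 64.0 CPM in WT and 27.8, 48.8 and 35.4 in UHRF1-AID cells (log2 fold change -0.83 ± 0.19, adjusted p = 0.0195). MCM6 measured 153, 156 and 144 CPM in WT and 93.5, 104 and 124 in UHRF1-AID cells (log2 fold change -0.51 ± 0.12, adjusted p = 0.0215). MCM2, MCM7, PRIM1 and RRM1 also passed, with log2 fold changes from -0.61 to -0.85. Of chromatin assembly and checkpoint no gene passed, the nearest being CHAF1B, a subunit of chromatin assembly factor 1, at 27.2, 28.9 and 27.5 CPM in WT and 21.1, 24.3 and 28.3 in UHRF1-AID cells, where the groups overlapped (log2 fold change -0.19 ± 0.15, adjusted p = 0.396).

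The count of 11 rested on few libraries. It became 3 without WT library 1, 2 without WT library 2 and 17 without UHRF1-AID library 2, and stayed at 10 without UHRF1-AID library 1, the library that stood apart. In that order the fits called 325 of 14469, 382 of 14444, 1728 of 14194 and 873 of 14247 of all genes tested as lower. The main fit called 917 of 13958, so the calls over all genes moved with those of the 44. POLA1, whose fall was the steepest in WT, measured 13.5, 14.8 and 20.5 CPM in UHRF1-AID cells at day 4, across the WT range of 13.6 to 17.7.

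DNMT1-AID cells differed least from WT at day 4. In them 6 of the 44 genes were lower and none higher, where 2.93% of all genes tested were lower. Of the 44 none was lower by over 2-fold, beside 38 of the 13582 genes tested. All DNMT1-AID libraries lay below all WT libraries for 11 of the 44, against 14.9% of all genes. The median log2 fold change was -0.13, and it became -0.23 without DNMT1-AID library 1 and -0.08 without library 2. The 6 genes were MCM2, MCM6, MCM7, RFC5, TYMS and RRM1. MCM6 passed in 1, and MCM2 and RFC5 in 2, of the 6 fits without 1 library. RRM1, the large subunit of ribonucleotide reductase (ENSG00000167325, hg38 chr11:4094707-4138876), measured 126, 127 and 108 CPM in WT and 84.6, 73.1 and 68.5 in DNMT1-AID cells, a log2 fold change of -0.67 ± 0.10 (adjusted p = 0.000995). MCM7 measured 325, 367 and 276 CPM in WT and 249, 203 and 211 in DNMT1-AID cells (log2 fold change -0.54 ± 0.11, adjusted p = 0.00825). TYMS measured 36.6, 32.0 and 37.8 CPM in DNMT1-AID cells, between the UHRF1-AID and the WT values (log2 fold change against WT -0.55 ± 0.12, adjusted p = 0.00874).

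For these 3 genes every DNMT1-AID library lay below every WT library. RRM1 alone passed in each fit without 1 library. The 6 became 3 without WT library 1, 1 without WT library 2 and 3 without DNMT1-AID library 3, and CHAF1A passed as higher without WT library 3. The first 3 of these fits called 154 of 13883, 60 of 13888 and 138 of 13827 of all genes tested as lower, against 398 of 13582 in the main fit. This comparison lies within 1 alignment set.

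In compound cells 27 of the 44 genes were lower than in WT at day 4 and none was higher, where 17.8% of all genes tested were lower. All compound libraries lay below all WT libraries for 29 of the 44, against 25.4% of all genes. The median log2 fold change was -0.54, against 0.02 for all genes. RRM1 and RFC5 were lower by over 2-fold, as were 354 of the 14219 genes tested. RRM1 measured 55.9, 52.0 and 59.4 CPM and was 2.13-fold lower (log2 fold change -1.09 ± 0.10, adjusted p = 3.43e-08). RFC5 measured 42.7, 37.8 and 35.2 CPM and was 2.02-fold lower (log2 fold change -1.01 ± 0.11, adjusted p = 3.15e-07). MCM2 measured 52.4, 57.2 and 57.8 CPM against 100, 115 and 92.4 in WT (log2 fold change -0.86 ± 0.10, adjusted p = 1.39e-06). The 3 compound values of each gene lay close together and below the WT range.

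**Figure D3:**
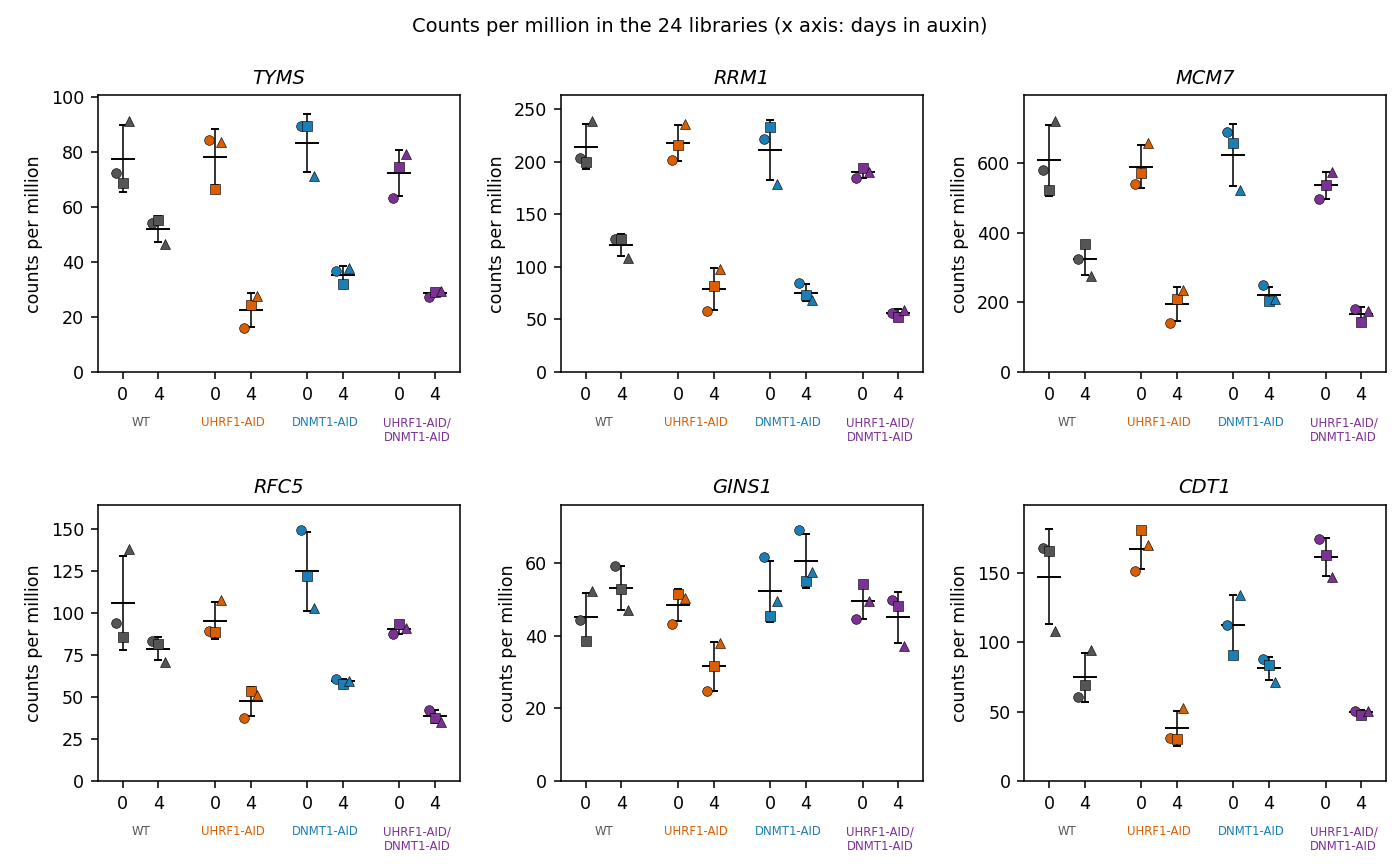
CPM of TYMS, RRM1, MCM7, RFC5, GINS1 and CDT1 in each of the 24 libraries by line and days in auxin (circle, square and triangle for replicates 1, 2 and 3; bars give mean and SD, n = 3; axes start at 0). RRM1 at day 4 runs from 108 to 127 CPM in WT and from 52.0 to 59.4 in compound cells, while GINS1 lies lowest in UHRF1-AID cells, at 24.8 to 38.1.

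By role, all 6 helicase subunits were lower in compound cells than in WT, with log2 fold changes from -0.94 (MCM7) to -0.59 (MCM3). Of the licensing genes ORC1, CDC6 and CDT1 were lower and ORC6 and GMNN were not, at -0.31 and 0.01. MCM10, CDC45, GINS3 and GINS4 of the firing genes passed, and GINS1 and GINS2 did not, at -0.22 and 0.01. Of the polymerase and primase genes POLA1, PRIM2, POLD2, POLD3 and POLE2 passed, 5 of 9.

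Of the 4 clamp loader genes RFC3, RFC4 and RFC5 passed. The 3 RPA genes stood at -0.23 (RPA1), 0.00 (RPA2) and 0.03 (RPA3), none past the test, while FEN1, the flap nuclease of Okazaki fragment processing, was lower by 0.71 on the log2 scale. TYMS, RRM1, RRM2 and DUT of deoxynucleotide synthesis were lower, and TK1 and DTYMK stood at 0.02 and -0.05. Of the 27 genes, 22 passed in each fit without 1 library, and the comparison lies within 1 alignment set. GINS1, PRIM1 and RPA3 passed in UHRF1-AID and not in compound cells, but the difference between these lines was not tested.

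**Figure D4:**
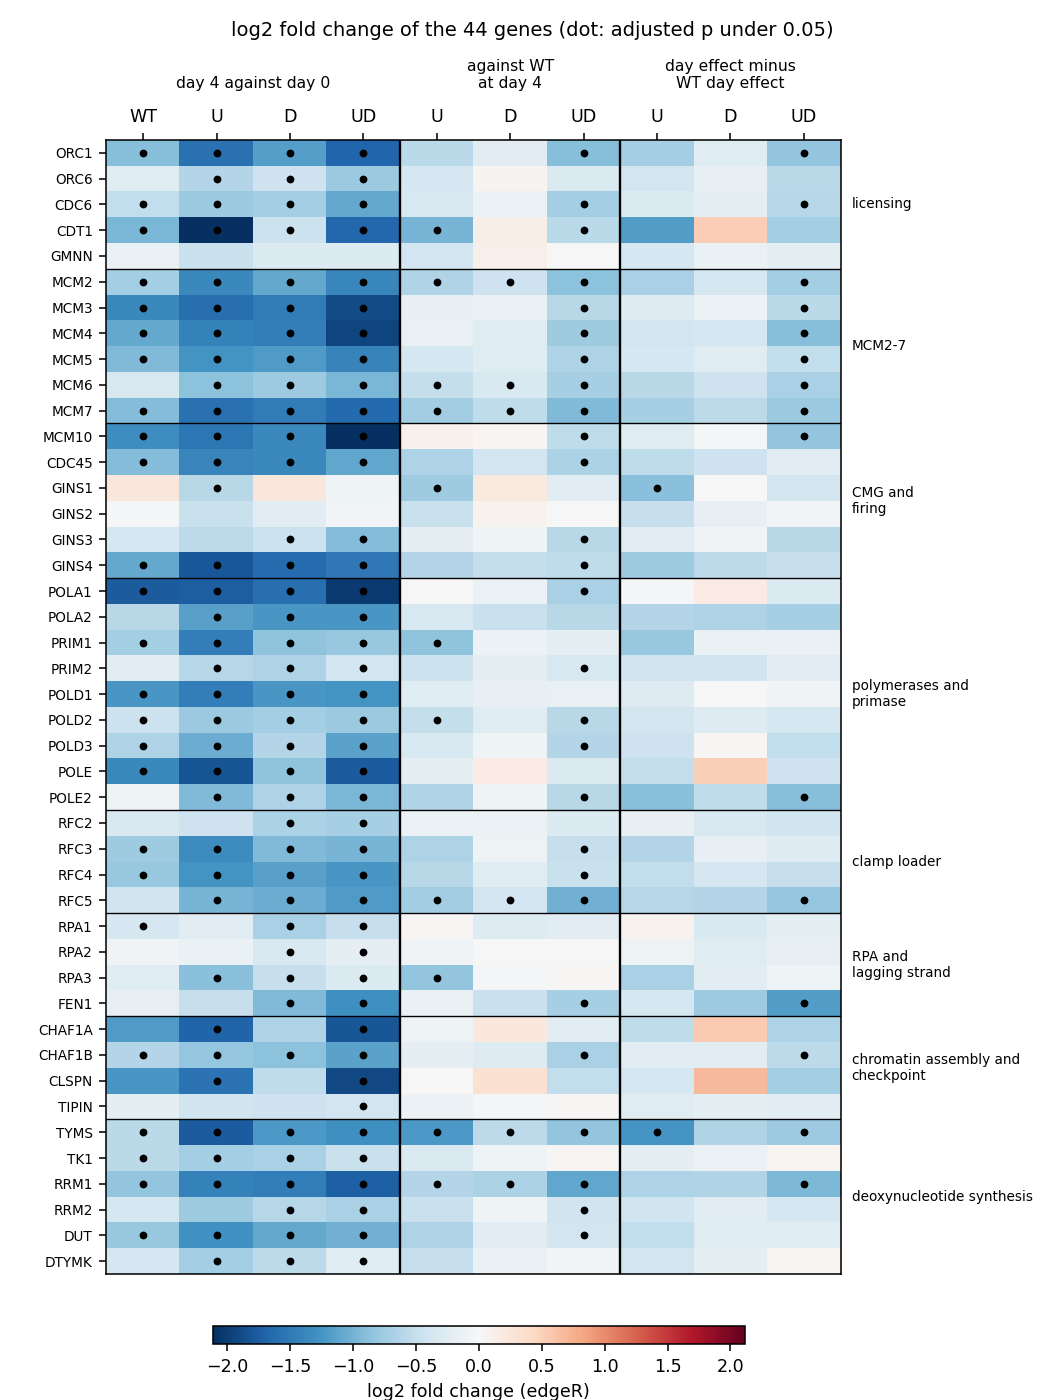
Log2 fold changes of the 44 genes by role (rows) in 10 comparisons (columns; U for UHRF1-AID, D for DNMT1-AID, UD for compound cells), blue for lower and red for higher, with a dot at an adjusted p under 0.05. Dots fill 25 of 44 rows for WT over the 4 days and 27 of 44 for UD against WT at day 4, and all lie on lower values.

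UHRF1-AID and DNMT1-AID cells were also compared with each other at day 4. In UHRF1-AID cells 4 of the 44 genes were lower and none higher, where 7.09% of all genes tested were lower. The count is near that share, and the comparison sets 1 alignment set against the other. The 4 genes were GINS1 (log2 fold change -0.98), CDT1 (-1.13), RPA3 (-0.82) and TYMS (-0.69). GINS1 measured 69.0, 55.1 and 57.5 CPM in DNMT1-AID cells and CDT1 measured 88.0, 84.0 and 71.6, each above all UHRF1-AID libraries. GINS1 and CDT1 passed in each fit without 1 library. The count became 2 without UHRF1-AID library 3 or any 1 of the DNMT1-AID libraries, and 11 without UHRF1-AID library 2. Over all genes tested, 1874 of 14317 were lower without UHRF1-AID library 2, against 998 of 14080 in the main fit.

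The day effect of each line minus that of WT asks what depletion added to the WT fall. In compound cells 15 of the 44 genes fell more than in WT and none less, where 9.12% of all genes tested fell more. RRM1 fell by 1.72 in compound cells and 0.83 in WT on the log2 scale, a difference of -0.94 ± 0.13 (adjusted p = 0.000334). MCM4 fell by 1.95 and 1.09, a difference of -0.91 ± 0.13 (adjusted p = 0.000513). FEN1 measured 144, 172 and 174 CPM in compound cells at day 0 and 69.8, 58.9 and 64.2 at day 4, against 123, 102 and 134 and then 112, 125 and 83.0 in WT. The WT libraries of FEN1 overlapped between days and the compound libraries did not, a difference of -1.19 ± 0.19 (adjusted p = 0.000937).

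The 15 genes held all 6 helicase subunits, ORC1 and CDC6 of licensing, MCM10, POLE2, RFC5, FEN1, CHAF1B, TYMS and RRM1. Of them 14 passed in each fit without 1 library, MCM5 being the exception. Without library 3 of WT day 0, 24 of the 44 genes fell more, where 2018 of 15394 genes tested did. POLA1, which fell by 1.76 in WT and 2.03 in compound cells, differed by -0.31 and did not pass.

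In UHRF1-AID cells 2 of the 44 genes fell more than in WT, where 1.02% of all genes tested did. TYMS fell by 1.76 in UHRF1-AID cells and 0.57 in WT (difference -1.24 ± 0.25, adjusted p = 0.0192). GINS1 measured 43.3, 51.4 and 50.4 CPM in UHRF1-AID cells at day 0 and fell by 0.59, while its WT value was 0.24 higher at day 4, short of the test (difference -0.88 ± 0.22, adjusted p = 0.0434). Neither passed in each fit without 1 library or with the replicate number as a block. The count ranged from 0, without either WT library 1 or 2 of day 0 or day 4 or UHRF1-AID library 3 of day 0, to 4, without WT library 3 of day 0 or UHRF1-AID library 3 of day 4. In the fits that gave 4, 342 of 15229 and 69 of 15082 genes tested fell more, against 152 of 14846 in the main fit. In DNMT1-AID cells none of the 44 passed, where 0.0139% of all genes tested fell more. At an unadjusted p under 0.05 there were 7 of the 44, beside 1829 of 14370 of all genes tested. DESeq2 called 0 of the 44, and 49 of all genes as falling more. Leaving out library 3 of WT day 0 gave 2, RFC5 and TYMS, where 120 of 14565 genes tested fell more.

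Genes with E2F-type letters in the promoter and genes without them are set side by side as a description. In WT over the 4 days the median log2 fold change was -0.74 for the 20 with the letters and -0.44 for the 18 without. In UHRF1-AID cells over the 4 days the medians were -1.38 and -0.77, and in compound cells against WT at day 4 they were -0.58 and -0.36. In DNMT1-AID cells over the 4 days they were -0.82 and -0.79. Against WT at day 4 they were -0.48 and -0.43 with UHRF1 depleted, and in the other order, -0.11 and -0.22, with DNMT1 depleted. The difference of the DNMT1-AID and WT day effects also had the smaller median with the letters, -0.17 against -0.26. RRM1 and RFC5 were among those without the letters in the window searched.

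Other genes of the same pathways were counted in lists of their own. Of 33 other replication genes 18 were lower and 1 higher in WT over the 4 days. At day 4 against WT, 3 were lower and 1 higher with UHRF1 depleted, 1 was lower with DNMT1 depleted, and 13 were lower and 4 higher in compound cells. The shares of all genes lower were 6.57%, 2.93% and 17.8%, and the first 2 counts are near them. POLE3, a small subunit of polymerase epsilon, measured 95.3, 92.0 and 73.1 CPM in WT and 53.8, 66.2 and 57.7 in UHRF1-AID cells (log2 fold change -0.56 ± 0.13, adjusted p = 0.02). RFC1, the large clamp loader subunit, measured 13.5, 17.1 and 23.3 CPM in WT and 35.6, 23.2 and 37.7 in UHRF1-AID cells. The 2 groups of RFC1 overlapped, and it was the one higher gene (log2 fold change 0.82 ± 0.24, adjusted p = 0.0479).

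Of 31 other nucleotide metabolism genes 6 were lower and 1 higher in UHRF1-AID cells against WT at day 4, 4 and 1 with DNMT1 depleted, and 17 and 3 in compound cells. IMPDH2, the rate-limiting enzyme of guanine nucleotide synthesis, measured 475, 466 and 413 CPM in WT and 305, 295 and 269 in UHRF1-AID cells (log2 fold change -0.65 ± 0.11, adjusted p = 0.00382). SAMHD1, which breaks down deoxynucleotides, measured 56.1, 59.6 and 45.6 CPM in WT and 129, 191 and 219 in UHRF1-AID cells. It was higher, with a log2 fold change of 1.73 ± 0.20 (adjusted p = 0.00078), while TYMS and RRM1 were lower in the same libraries.

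Of 38 mitosis genes 28 were lower in WT over the 4 days, and against WT at day 4, 4 were lower with UHRF1 depleted, 3 with DNMT1 depleted and 24 in compound cells, with none higher, beside 6.57%, 2.93% and 17.8% of all genes. The day effect in compound cells exceeded that of WT in 22 of the 38. CCNA2, the cyclin of S and G2 phase, measured 124, 105 and 104 CPM in WT and 43.3, 73.1 and 63.6 in UHRF1-AID cells at day 4 (log2 fold change -0.89 ± 0.19, adjusted p = 0.0116). The mitosis genes moved in the same direction as the 44 genes in these comparisons, and the part of cell cycle position in the values of the 44 genes was not tested.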

How the data were processed

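PolyA RNA of 24 libraries was analysed in 8 groups of 3, with group and replicate taken from the sample labels. The deposited tables hold raw counts per Ensembl gene, 1 table per library and not normalized, which the authors made with Trimmomatic (trimming), STAR (alignment to hg38) and featureCounts. Strandedness and the handling of reads with several alignments are not given in the sources used here, so overlapping genes and near-identical copies are uncertain: 22 of the 44 genes share exon bases with another gene, 10 of them over 10% of their exon length. The 92 ERCC sequences entered neither library sizes nor fits.

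Counts were filtered with filterByExpr, scaled by TMM and tested with edgeR 4.0.16 (R 4.3.3), quasi-likelihood with robust dispersions, in fits of the 6 libraries compared, or 12 for a difference of day effects. Passing means a Benjamini-Hochberg adjusted p under 0.05 over all genes tested, and the study's rule, also an absolute log2 fold change over 1, is given beside it as over 2-fold. The fits were tested on simulated counts. Of simulated 2-fold changes 65% were called for UHRF1-AID against WT at day 4 and 35% for the compound difference of day effects. With no change simulated, 2 and 0 genes were called. Few or no genes passing in a difference of day effects thus does not show that depletion added nothing. CPM values were scaled by TMM over all 24 libraries, and the medians by library use log2 CPM with a prior count of 2. Alternatives were RLE scaling, DESeq2 1.42.0, no filter, a minimum of 10 counts per library, a joint fit of the 24 libraries, a block for replicate numbers, an offset for gene length, the fold threshold, and leaving out each library. No 2 replicates were alike enough to be 1 library: the lowest chi-square per degree of freedom of the 24 pairs was 3.52.

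The members, their roles and the other lists were chosen with earlier results of these data known. Full values were given for the 3 genes with the smallest p among those passing in WT over the 4 days, in each line against WT at day 4 and in each difference of day effects, for the gene with the smallest p of each role in UHRF1-AID cells against WT at day 4, and for at most 2 genes a direction of each other list. Replicate numbers paired the libraries, by correlations of deviations from group means over 0.1 in all 3 pairs, in the day comparisons of UHRF1-AID (0.34, 0.16 and 0.18) and compound cells (0.14, 0.12 and 0.12). Motifs were searched in Python 3.11.15, and figures drawn with matplotlib 3.10.9.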

Additional observations from a re-analysis of the deposited data

Results flagged for a closer look

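Day effects that differed between a degron line and WT by the test of the difference itself were set apart for a closer look. In UHRF1-AID cells they were GINS1, with a difference of -0.88 on the log2 scale, and TYMS, with -1.24. In compound cells the differences were -0.83 for ORC1, -0.61 for CDC6, -0.71 for MCM2, -0.58 for MCM3, -0.91 for MCM4, -0.53 for MCM5, -0.68 for MCM6, -0.79 for MCM7 and -0.83 for MCM10. They were -0.91 for POLE2, -0.82 for RFC5, -1.19 for FEN1, -0.56 for CHAF1B, -0.77 for TYMS and -0.94 for RRM1.

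ERCC spike-in sequences, which no comparison uses, took up to 1.65% of the counts of a library and had none in 15 of the 24 libraries.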

How the results depend on the processing

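Of 628 recomputed counts and medians 570 stayed within the limits set (counts within 1.5 times, medians within the replicate spread), and of 8800 recomputed values of single genes 211 lost and 183 gained a call and none turned its direction past the test. With a log2 fold change over 1 also required, the counts of lower genes over the 4 days were 7 (WT), 23 (UHRF1-AID), 17 (DNMT1-AID) and 25 (compound), and at day 4 they were 1, 0 and 2 for the 3 lines against WT, 1 for UHRF1-AID against DNMT1-AID, and 1 for the differences of day effects in UHRF1-AID and in compound cells. In the same order all genes tested gave 888, 1413, 925 and 1686, then 170, 38 and 354, then 342, and 69 and 294. For UHRF1-AID against WT at day 4 (11), no filter gave 21, all 24 libraries in 1 fit 20 and DESeq2 17. Over all genes tested these fits called 1362 of 25340, 1830 of 15699 and 1207 of 13958 as lower, against 917 of 13958 in the main fit. DNMT1-AID against WT at day 4 gave 3 with all libraries in 1 fit, where 365 of 15699 genes tested were lower. UHRF1-AID against DNMT1-AID gave 9 with no filter and 8 with all libraries, where 1537 of 25659 and 1397 of 15699 genes tested were lower. Compound against WT at day 0 gave 1 lower and 1 higher with no filter, and 2 lower with DESeq2 or a gene length offset. Over all genes, no filter gave 491 lower and 432 higher, and DESeq2 and the offset gave 544 and 400 lower. The difference of day effects in UHRF1-AID gave 1 with RLE scaling or at least 10 counts in every library, 8 with no filter, 7 with all libraries and 4 with DESeq2, and that in DNMT1-AID gave 3 with no filter. Over all genes those fits of UHRF1-AID called 107, 96, 465, 310 and 274 as falling more, against 152 in the main fit. The unfiltered fit of DNMT1-AID called 87, against 2 in its main fit. The causes were not tested.

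The replicate block turned the 2 genes of the UHRF1-AID difference of day effects to 0 and the 35 of its day comparison to 41, left the compound day comparison at 41, and kept the other counts within 1.5 times. Over all genes tested it gave 25 lower in place of 152, and 3577 in place of 3301, for those UHRF1-AID comparisons. Where the numbers do not pair the libraries they share only a number.

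Over 102 fits without 1 library, lower genes ranged over 20 to 27 in WT over the 4 days (higher 0 to 1), 31 to 40 in UHRF1-AID, 28 to 39 in DNMT1-AID and 40 to 42 in compound cells, whose median ran from -1.19 to -1.06. Against WT at day 4 they ranged over 2 to 17 for UHRF1-AID, 1 to 9 for DNMT1-AID (higher 0 to 1) and 24 to 29 for compound cells, and against WT at day 0 over 0 to 3 for compound cells (higher 0 to 8). UHRF1-AID against DNMT1-AID ran from 2 to 11, and the differences of day effects from 0 to 4 in UHRF1-AID, 0 to 2 in DNMT1-AID (median -0.39 to -0.16) and 14 to 24 in compound cells. With 3 libraries a group, changes under 2-fold in genes of low count such as POLA2 or CLSPN are the least certain.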
